A study of Mus musculus with 9 samples.

Results

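Serpins are a superfamily of proteins named for the serine protease inhibitors among them, and the 34 serpin genes described here are all rows of the count table whose gene name is Serpin followed by a clade letter from a to i and a digit, out of 23018 genes. Of these, 4 had no symbol in the table and were named from their Ensembl identifier (Serpina3d-ps, Serpina3e-ps, Serpina3g and Serpina3h). The reference annotation lists 68 such symbols, and the other 34 are not analysed here. Transcripts were counted by RNA sequencing in lymphatic endothelial cells (LECs), the cells that line lymph vessels, taken from the meninges (3 libraries), the diaphragm (3 libraries) and the skin (3 libraries). All donors were wild-type C57BL/6 males 10 weeks of age that had received no treatment, and the cells were gated as CD45-, CD31+ and podoplanin+. Whether each library is its own animal or pool is not stated in the labels, so p-values reflect spread between libraries that may be technical.

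An inhibitory serpin presents a flexible loop as bait to its protease, is cut, and then folds around the enzyme so that both are trapped in a covalent complex. Clade letters follow sequence relatedness: most members are secreted and act on clotting, plasmin, complement or the proteases of inflammatory cells, clade B members stay inside the cell, and several members have lost inhibition and serve as hormone carriers, signalling proteins or chaperones. In vessels, serpins of clades C, D and E restrain thrombin and the plasminogen activators, and the product of Serping1 restrains complement and the kallikrein system that governs vessel leak.

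Library totals lay between 26075366 and 34592850 counts. All 9 LEC and gate markers examined had counts in each library, with summed levels of 6630 to 16249 CPM in meninges, 14736 to 20354 CPM in diaphragm and 20451 to 21081 CPM in skin (CPM, read counts scaled to the size of each library). Markers of other cells were also present. The 9 fibroblast markers summed to 1378, 7964 and 7812 CPM in Meninges replicates 1, 2 and 3, against 634.4 to 1435 CPM in diaphragm and 111.1 to 1058 CPM in skin. Meninges replicate 1 therefore stood apart from the other meningeal libraries, and Diaphragm replicate 1 stood apart by its 6 mesothelial markers, at 1189 CPM against 40.85 and 85.92 CPM in the other diaphragm libraries. In bulk samples, fewer cells of a type and less RNA per cell cannot be told apart.

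Among the serpins, 2 genes passed the test in a comparison with meninges. Serpinf1 was higher in the meningeal libraries than in those of both other tissues, and Serpina3n was lower in the meningeal than in the skin libraries. Calls were made with edgeR's quasi-likelihood test on the 9 libraries together, at an adjusted p (Benjamini-Hochberg) under 0.05 over the 14831 genes that passed a filter on low counts. The filter kept 16 of the 34 serpins, of which 1 was called for meninges against diaphragm, beside 0.344% of all genes tested, and 2 for meninges against skin, beside 1.32%. The promoter windows of the 2 called genes are shown, each from 250 bases before to 50 bases after the transcript start. They are from RefSeq on the build GRCm38.p6 and in the direction of transcription. Capitals mark the letters CCAAT.
Serpinf1 (chr11:75422574-75422873, minus strand): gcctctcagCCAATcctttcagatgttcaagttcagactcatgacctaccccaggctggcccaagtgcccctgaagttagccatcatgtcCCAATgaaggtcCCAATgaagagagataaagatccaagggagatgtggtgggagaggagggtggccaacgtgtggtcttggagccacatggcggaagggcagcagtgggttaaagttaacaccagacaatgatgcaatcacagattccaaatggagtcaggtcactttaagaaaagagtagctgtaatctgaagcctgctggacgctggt
Serpina3n (chr12:104406458-104406757, plus strand): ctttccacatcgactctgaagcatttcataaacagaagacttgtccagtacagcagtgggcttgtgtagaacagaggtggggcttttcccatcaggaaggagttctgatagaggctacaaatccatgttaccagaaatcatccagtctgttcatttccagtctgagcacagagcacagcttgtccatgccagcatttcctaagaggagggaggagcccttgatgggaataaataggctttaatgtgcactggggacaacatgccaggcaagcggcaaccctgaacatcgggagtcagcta
The Serpinf1 window held CCAAT at 3 places, starting at positions -241, -160 and -148 from the start, and the Serpina3n window held none on either strand. CCAAT occurred in 37.4% of the 32851 windows of all genes and in 11 of the 28 windows of serpin genes. Of the other motifs searched on both strands, TATAAA (13.6% of all windows), GGGCGG (35.7%), TGANTCA (7.81%), TTCNNNGAA (8.30%), the interferon-stimulated response element (3.44%) and the heat shock element (0.603%), neither window held any. Outside the called genes, CCAAT was present in a window of Serpinb6a, lowest in the meningeal libraries. It was absent from that of Serpinh1, highest there. These are matches of letters, and no binding was measured.

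Serpin transcripts were detected in every library, but few genes made up most of the signal. Counts were present for 20, 16 and 18 of the 34 serpins in the meningeal libraries, for 19, 15 and 18 in the diaphragm libraries and for 13, 16 and 13 in the skin libraries. Taking the 3 libraries of a tissue together, 23 serpins had a count in meninges, 26 in diaphragm and 20 in skin. Only 8 had counts in all 9 libraries (Serpina3h, Serpina3n, Serpinb6a, Serpinb9, Serpine2, Serpinf1, Serping1 and Serpinh1), while 13 had counts in a single library. A count of 0 over a tissue allows a level of up to 0.0294 CPM in meninges, 0.0367 CPM in diaphragm and 0.0413 CPM in skin (3 counts over the tissue's scaled total, counting error only). The lowest total of any gene in the table was 2 counts, so the table lists only genes with counts.

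**Figure D1:**
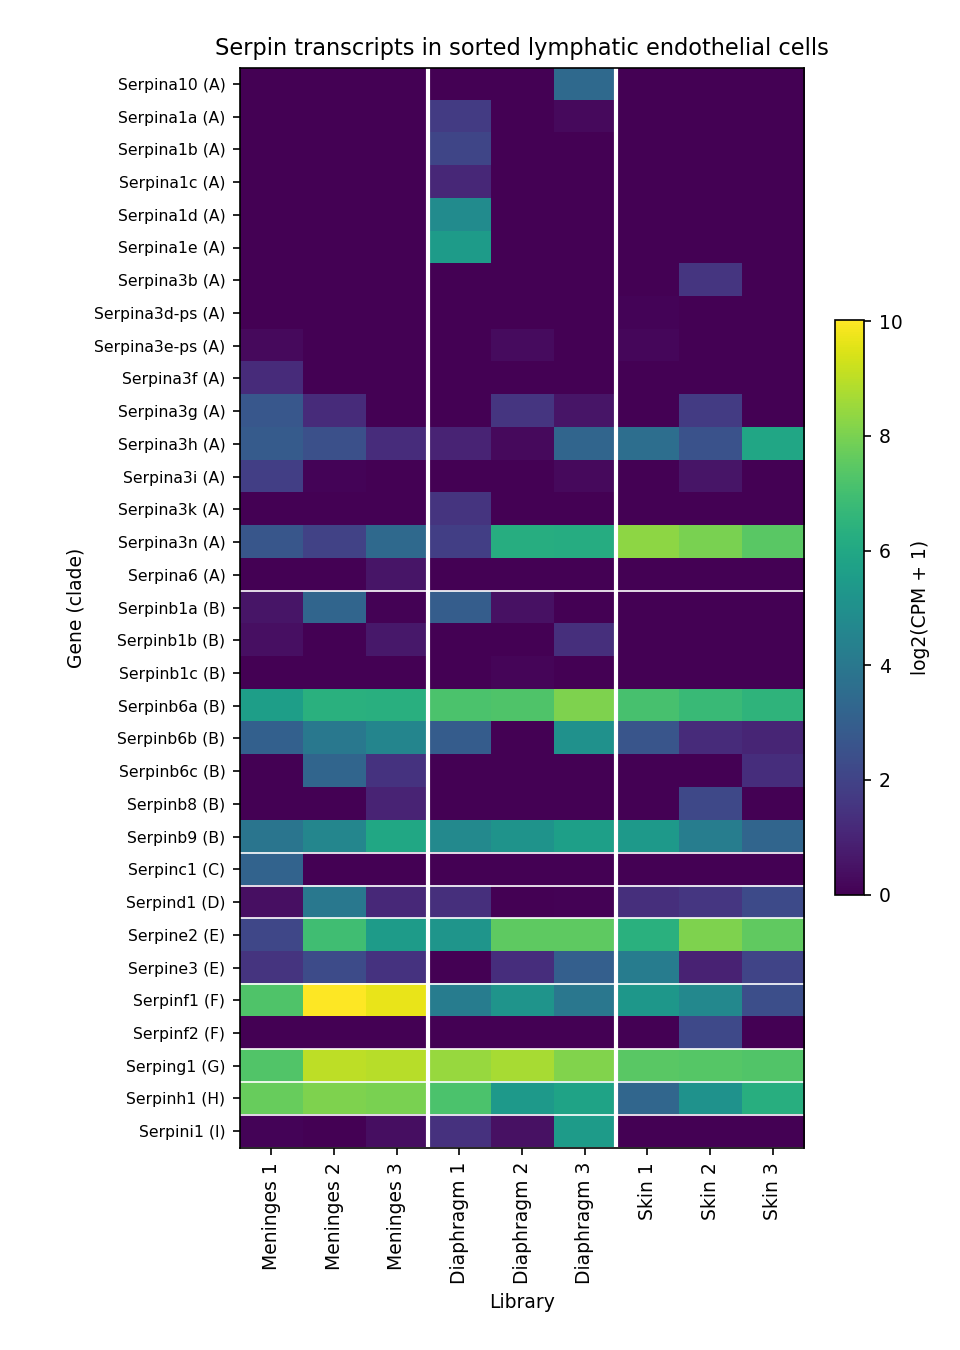
Level of 33 serpin genes (rows, with the clade in brackets) in each of the 9 libraries (columns, grouped as meninges, diaphragm and skin) as log2(CPM + 1). A few rows are bright across the columns, among them Serping1, Serpinb6a and Serpinf1, while 13 genes have a count in a single library.

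By clade, the secreted clade A held 16 of the 34 genes, of which 2 had counts in all 9 libraries and 10 in a single one. The intracellular clade B held 8 genes, of which 2 were present in all 9 libraries. Clade E held 3 genes, clade F held 2, and clades C, D, G, H and I were each represented by 1 gene. By the reference annotation the clade A genes lie together on chromosome 12 and the clade B genes on chromosome 13, apart from Serpinb8 on chromosome 1. GENCODE classes 3 of the clade A genes as pseudogenes (Serpina3d-ps, Serpina3e-ps and Serpina3h). Genes of the Serpina1, Serpina3, Serpinb1 and Serpinb6 families are close copies of each other, and the counting rule for reads that match more than one copy is unknown, so levels within each of these families are uncertain.

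Scaled to transcript length, the leading serpin differed by tissue. As a share of all serpin CPM per kb of exon, Serpinf1 made up 27.2%, 51.0% and 48.4% in the meningeal libraries, 2.22%, 3.91% and 1.53% in diaphragm and 5.0%, 3.01% and 0.583% in skin. Serping1 made up 27.2%, 24.9% and 28.1% in meninges, 43.1%, 44.0% and 27.9% in diaphragm and 21.4%, 19.1% and 20.8% in skin. Serpina3n made up 0.894%, 0.136% and 0.546% in meninges, 0.311%, 7.70% and 7.19% in diaphragm and 37.9%, 29.3% and 22.4% in skin. The meningeal shares of Serpinf1 lay above every share in the other tissues, and the skin shares of Serpina3n did likewise. In Meninges replicate 1 the largest share belonged to Serpinh1, at 28.9%, and in Skin replicate 3 to Serpine2, at 22.6%. The summed serpin level was 289, 1044 and 873 CPM per kb in meninges, 405, 464 and 493 CPM per kb in diaphragm and 400, 425 and 375 CPM per kb in skin, so the meningeal libraries held both the lowest and the highest sums. Shares within a library depend on each other, because a larger share of one gene leaves less for the rest.

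**Figure D2:**
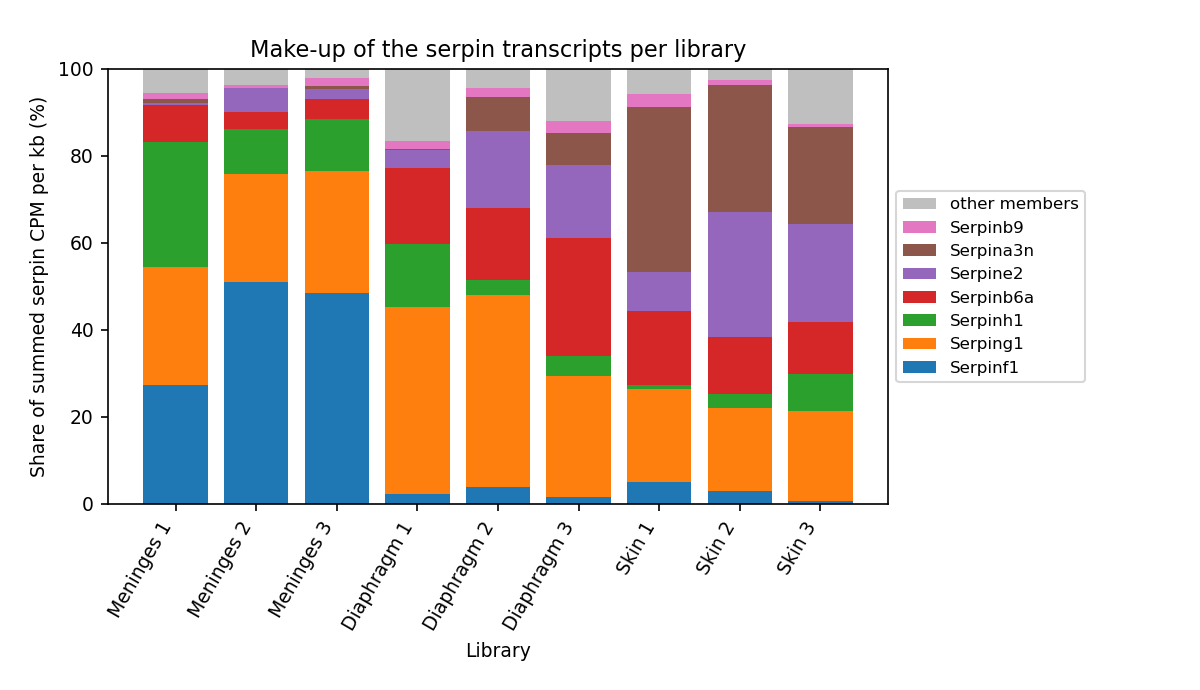
Make-up of the serpin transcripts in each library, as the percentage of the summed serpin CPM per kb of exon (stacked bars to 100%, 1 bar per library, 1 colour per gene). Serpinf1 fills 27.2% to 51.0% of the meningeal bars, Serping1 27.9% to 44.0% of the diaphragm bars and Serpina3n 22.4% to 37.9% of the skin bars.

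Serpinf1 encodes pigment epithelium-derived factor, a secreted serpin without inhibitory activity that restrains the growth of blood vessels and binds collagen; its loss in people causes a brittle bone disease. It stood at 152, 1032 and 819 CPM in the meningeal libraries, at 17.4, 35.2 and 14.6 CPM in the diaphragm libraries and at 38.7, 24.7 and 4.23 CPM in the skin libraries. Every meningeal library lay above every other library, and the lowest of them, Meninges replicate 1, was well under the other meningeal libraries. The mean ± SD of 3 libraries was 667 ± 459 CPM for meninges, 22.4 ± 11.2 CPM for diaphragm and 22.6 ± 17.3 CPM for skin. Serpinf1 was higher in meninges than in diaphragm (log2 fold change 4.90 ± 0.85 SE, edgeR adjusted p = 0.0244) and than in skin (4.89 ± 0.85 SE, edgeR adjusted p = 0.0122). Diaphragm and skin levels overlapped, with a log2 difference of -0.01 (edgeR adjusted p = 1.0). Without Meninges replicate 1 the log2 fold change was 5.37 against diaphragm (edgeR adjusted p = 0.0056) and 5.35 against skin (edgeR adjusted p = 0.00408). The call against diaphragm was lost without Meninges replicate 2 (edgeR adjusted p = 0.0806), Meninges replicate 3 (0.07), Diaphragm replicate 1 (0.0923), Diaphragm replicate 2 (0.0553) or Diaphragm replicate 3 (0.103), and both calls were lost with limma voom (adjusted p = 0.167 against diaphragm and 0.178 against skin).

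Markers of several other cell types differed between the tissues along with Serpinf1. Bone and cartilage markers, 6 in all, summed to 182.7, 987.8 and 671.6 CPM in meninges, 2.202 to 3.638 CPM in diaphragm and 0.2698 to 37.27 CPM in skin, with Bglap and Ibsp at 0 in diaphragm and Bglap, Ibsp and Sp7 at 0 in skin. The 8 meningeal fibroblast markers summed to 201.7, 1038 and 764.7 CPM in meninges, 29.80 to 98.84 CPM in diaphragm and 64.03 to 143.0 CPM in skin, and 6 of them were at 0 in diaphragm and 5 in skin. In Meninges replicate 1 the general fibroblast sum of 1378 CPM lay inside the diaphragm range, while its Serpinf1 level of 152 CPM lay above each diaphragm library. Single fibroblast markers went both ways there. Col1a1 (541 CPM) and Col1a2 (486 CPM) lay above each diaphragm library, and Dcn (118 CPM) and Col3a1 (127 CPM) below each. Both the bone and the meningeal fibroblast sums were higher in Meninges replicate 1 than in any diaphragm or skin library. Mural markers, 8 in all, summed to 470.6, 1018 and 1192 CPM in meninges, 281.4 to 500.2 CPM in diaphragm and 27.93 to 279.3 CPM in skin. Blood endothelial markers, 8 in all, summed to 2757, 1126 and 1508 CPM in meninges, 799.9 to 1663 CPM in diaphragm and 652.2 to 764.4 CPM in skin. Among the meningeal libraries that sum was highest in replicate 1, where Serpinf1 was lowest. Neural, glial and choroid plexus markers, 8 in all, summed to 440.9 to 561.8 CPM in meninges, 0.3772 to 12.88 CPM in diaphragm and 1.411 to 5.700 CPM in skin, with 5 of them at 0 in diaphragm and 5 in skin. Most of the meningeal sum was Ttr, at 508, 527 and 427 CPM. The part of these cells in the Serpinf1 result was not tested.

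**Figure D3:**
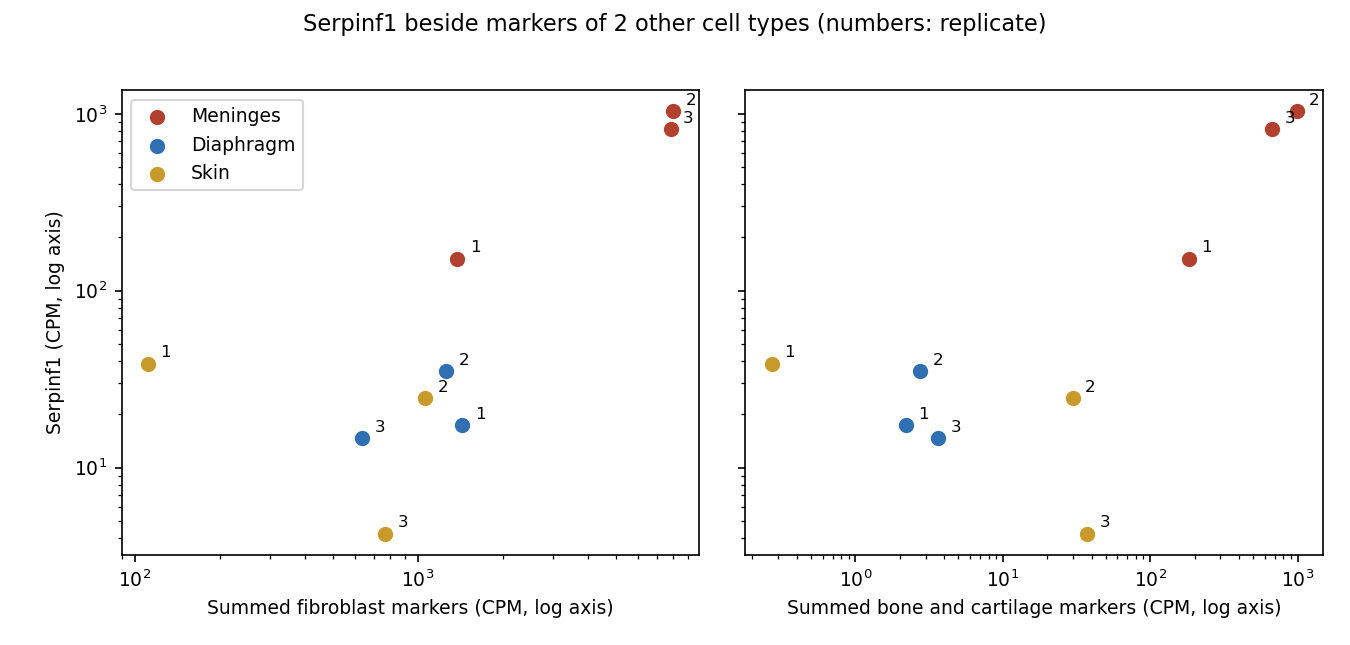
Serpinf1 level (vertical, CPM, log axis) against the summed level of 9 fibroblast markers (left) and 6 bone and cartilage markers (right), both in CPM on log axes, with 1 point per library, coloured by tissue and numbered by replicate. Meninges replicates 2 and 3 lie at the upper right of both panels. Meninges replicate 1 sits above the diaphragm libraries at a fibroblast sum inside their range, although single fibroblast markers differ from diaphragm in both directions.

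Serpina3n encodes a secreted inhibitor of proteases of the cathepsin G and granzyme B kind that rises in the liver during the acute-phase response and in reactive astrocytes. It stood at 5.33, 2.93 and 9.84 CPM in meninges, at 2.61, 73.8 and 73.2 CPM in diaphragm and at 313, 257 and 173 CPM in skin. Skin was highest in all 3 libraries with no overlap with either other tissue, and the diaphragm libraries were split, with Diaphragm replicate 1 at the meningeal level. The mean ± SD of 3 libraries was 6.03 ± 3.51 CPM for meninges, 49.8 ± 40.9 CPM for diaphragm and 248 ± 70.0 CPM for skin. Serpina3n was lower in meninges than in skin (log2 fold change -5.36 ± 1.01 SE, edgeR adjusted p = 0.0177). Per kb of exon it ranked 9th of the serpins in meninges, 5th in diaphragm and 1st in skin. The difference from diaphragm was not called (log2 fold change -3.04 ± 0.90 SE, edgeR adjusted p = 0.265), nor was that between diaphragm and skin (-2.31 ± 0.87 SE, edgeR adjusted p = 0.363). Leaving out Diaphragm replicate 1 brought the meninges against diaphragm test past the threshold (log2 fold change -3.61, edgeR adjusted p = 0.0202), and leaving out Meninges replicate 1, 2 or 3 lost the skin call, with edgeR adjusted p values of 0.0507, 0.0779 and 0.0505.

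Several marker sums differed between the same libraries. LEC and gate markers were higher in skin (20451 to 21081 CPM) and in diaphragm (14736 to 20354 CPM) than in Meninges replicates 2 and 3 (6630 and 11761 CPM), with Meninges replicate 1 at 16249 CPM. Keratinocyte markers (7 of 9 listed had a row) summed to 1.185, 89.37 and 28.19 CPM in meninges and to 0.03854, 195.7 and 0 CPM in skin. Fibroblast markers were at 1378 to 7964 CPM in meninges and 111.1 to 1058 CPM in skin, and the 7 leukocyte markers with a row summed to 4.084 to 17.32 CPM in meninges and 0.1542 to 11.72 CPM in skin. The leukocyte sum was higher in Diaphragm replicates 1, 2 and 3, at 35.97, 124.7 and 42.62 CPM, with Ptprc at 118 CPM in replicate 2. The part of these cells in the Serpina3n levels was not tested.

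The neighbouring pseudogene Serpina3h was at 6.24, 4.39 and 1.42 CPM in meninges, at 0.991, 0.189 and 8.60 CPM in diaphragm and at 11.3, 4.81 and 60.1 CPM in skin. Its highest value was in Skin replicate 3, the skin library with the least Serpina3n, and the tissues overlapped (log2 fold change -2.66 ± 1.70 SE, edgeR adjusted p = 0.574 for meninges against skin). Of the other Serpina3 genes, Serpina3g did not exceed 5.55 CPM in any library, and the highest level of Serpina3b, Serpina3f, Serpina3i and Serpina3k in a library lay between 1.34 and 2.65 CPM.

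Serpinh1 encodes a chaperone of the endoplasmic reticulum that binds procollagen and inhibits no protease. It stood at 204, 266 and 257 CPM in meninges, at 143, 41.1 and 55.2 CPM in diaphragm and at 8.75, 33.6 and 77.4 CPM in skin. The meningeal libraries lay above all others, and diaphragm and skin overlapped. The mean ± SD of 3 libraries was 243 ± 33.7 CPM for meninges, 79.7 ± 55.0 CPM for diaphragm and 39.9 ± 34.7 CPM for skin. Neither difference from meninges was called (log2 fold change 1.61 ± 0.68 SE, edgeR adjusted p = 0.44 against diaphragm; 2.60 ± 0.71 SE, edgeR adjusted p = 0.104 against skin). Against skin, the DESeq2 Wald test (adjusted p = 0.0374), limma voom (adjusted p = 0.0243) and an edgeR fit with no filter (adjusted p = 0.00366) did call it. Meninges replicate 1, with 204 CPM of Serpinh1, had a fibroblast sum inside the diaphragm range, but its meningeal fibroblast sum (201.7 CPM) and its bone and cartilage sum (182.7 CPM) were above those of each diaphragm library. Of its fibroblast markers, Col1a1 and Col1a2 lay above each diaphragm library, while Dcn and Col3a1 lay below each. The part of these cells in the Serpinh1 levels was not tested.

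Of 31 genes that make, fold or process collagen beside Serpinh1, 3 were called higher in meninges than in skin, beside 0.748% of all genes tested, and none lower: Adamts2 and Pcolce, which trim or promote trimming of procollagen ends, and the collagen chain Col3a1. Adamts2 stood at 42.4, 343 and 308 CPM in meninges, against 1.93, 1.54 and 0 CPM in skin (log2 fold change 7.63 ± 1.58 SE, edgeR adjusted p = 0.0304). Pcolce stood at 26.7, 187 and 123 CPM in meninges, against 3.55, 6.91 and 8.10 CPM in skin (log2 fold change 4.18, edgeR adjusted p = 0.0463). Col3a1, which is also one of the fibroblast markers, stood at 127, 1139 and 906 CPM in meninges, against 47.6, 145 and 79.7 CPM in skin (log2 fold change 3.0, edgeR adjusted p = 0.0496). In Adamts2 and Pcolce the meningeal libraries lay above all skin libraries, while Col3a1 in Meninges replicate 1 was below Skin replicate 2. Col3a1 and Pcolce were each called in 4 of the 9 fits that left out a library, and Adamts2 in 5. With limma voom none of these calls held (adjusted p = 0.184 for Adamts2, 0.207 for Pcolce and 0.247 for Col3a1), and that of Col3a1 was also lost with DESeq2 size factors (edgeR adjusted p = 0.0511) and in the fit of the 2 tissues alone (edgeR adjusted p = 0.0986). The list's median log2 fold change was 1.89 against skin, beside 0.08 over all genes tested, and 1.14 against diaphragm, beside 0.05. For meninges against skin, 13 of the 31 had an unadjusted p under 0.05 (13.8% of all genes), the DESeq2 Wald test called 11 (9.49% of all genes with an adjusted p) and limma voom 1 (2.79% of all genes). EdgeR called none of the 31 in the diaphragm comparisons. For meninges against diaphragm, 9 had an unadjusted p under 0.05 (10.1% of all genes), DESeq2 called 7 (6.07%) and limma voom 1 (1.35%). For diaphragm against skin, 4 had an unadjusted p under 0.05 (11.8%), DESeq2 called 2 (7.10%) and limma voom 0 (0.00674%). The highest levels on the list belonged to the collagen chains Col1a1 (mean ± SD of 3 libraries 2094 ± 1345 CPM for meninges, 105 ± 49.2 CPM for diaphragm and 170 ± 138 CPM for skin) and Col1a2 (1884 ± 1212, 129 ± 58.7 and 161 ± 124 CPM in the same tissues). Both are fibroblast markers too, and the part of the fibroblast signal in these differences was not tested.

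Serping1 encodes the C1 inhibitor, which blocks the complement proteases C1r and C1s and plasma kallikrein. It was abundant in every library, at 158, 523 and 493 CPM in meninges, 351, 411 and 276 CPM in diaphragm and 172, 163 and 157 CPM in skin. Diaphragm lay above skin in all libraries, meninges overlapped both, and the skin libraries were close to each other. The mean ± SD of 3 libraries was 391 ± 203 CPM for meninges, 346 ± 67.4 CPM for diaphragm and 164 ± 7.52 CPM for skin. No difference was called (log2 fold change 0.18 ± 0.41 SE, edgeR adjusted p = 0.973 for meninges against diaphragm; 1.25, 0.42 and 0.202 for meninges against skin; 1.08, 0.42 and 0.371 for diaphragm against skin). Without Meninges replicate 1 the meninges against skin difference was called (log2 fold change 1.63, edgeR adjusted p = 0.0388). Its target C1s1 stood at 3.12, 110 and 47.5 CPM in meninges, 42.6, 43.4 and 109 CPM in diaphragm and 0, 0.162 and 0.273 CPM in skin, where it totalled 10 counts. C1s1 was higher in meninges than in skin (log2 fold change 8.51 ± 1.56 SE, edgeR adjusted p = 0.0159), a call lost without Meninges replicate 2 (edgeR adjusted p = 0.0542), with limma voom (adjusted p = 0.125) and in the fit of the 2 tissues alone (edgeR adjusted p = 0.064). The C1s1 difference between diaphragm and skin, 8.79, missed the threshold (edgeR adjusted p = 0.0585).

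**Figure D4:**
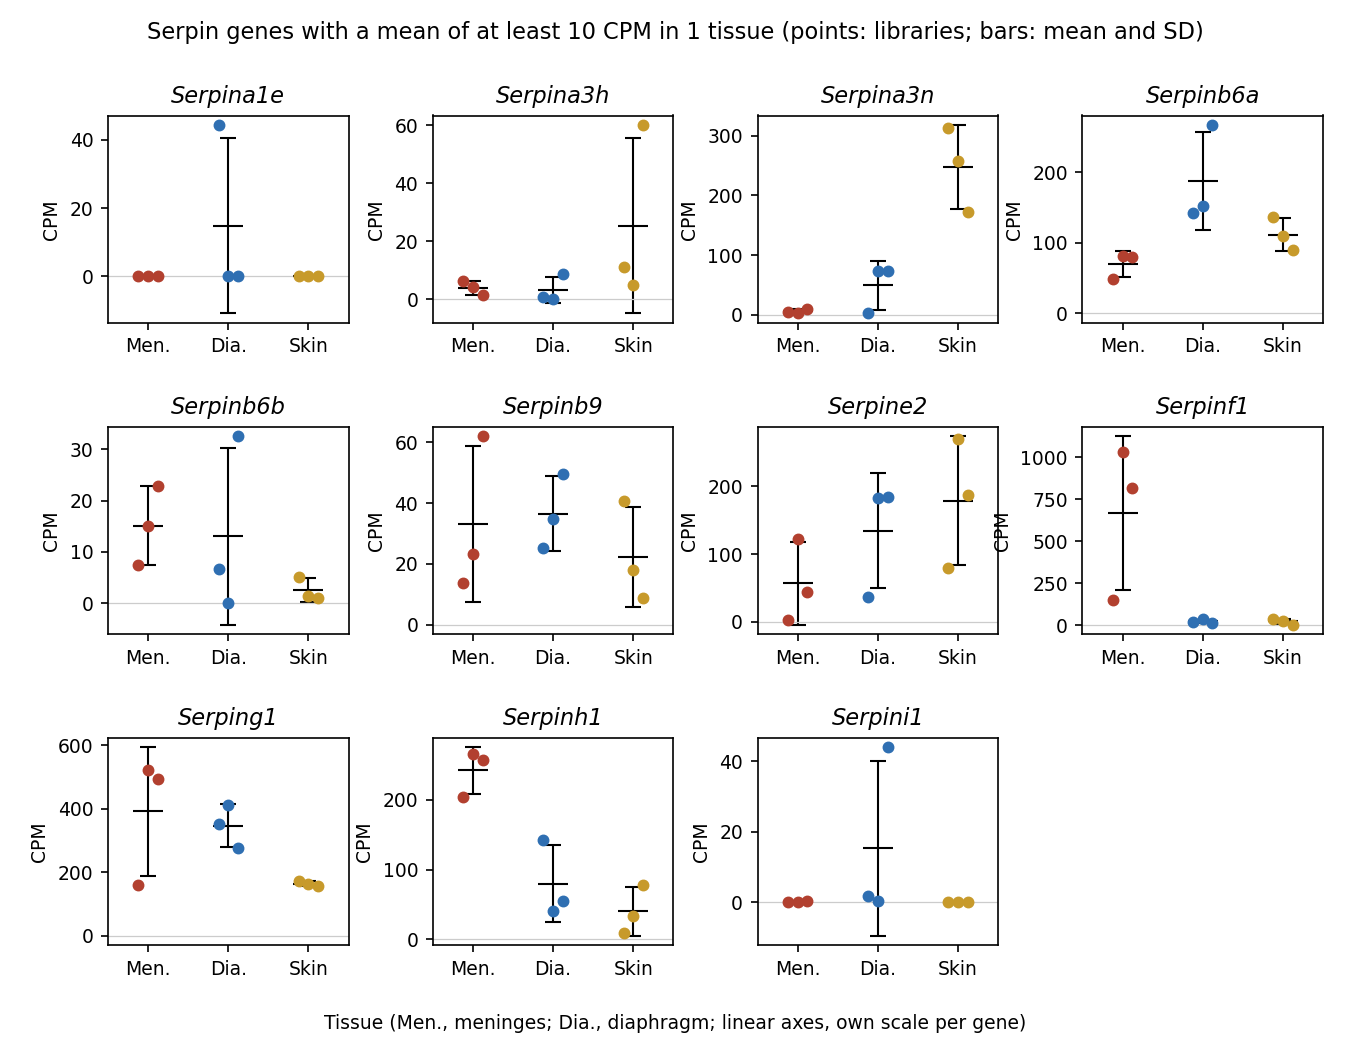
Levels in CPM (linear axes, own scale per gene) of 11 serpin genes that averaged at least 10 CPM in 1 tissue, with 1 point per library and bars for the mean and SD of 3 libraries, in meninges, diaphragm and skin. Serpinf1 and Serpinh1 are highest in the 3 meningeal libraries, Serpina3n in the 3 skin libraries, and the Serpina1e and Serpini1 means each rest on 1 diaphragm library.

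The clade E serpins act on plasminogen activators and thrombin. Serpine2, a protease nexin that inhibits thrombin and plasminogen activators at the cell surface, stood at 3.34, 123 and 44.4 CPM in meninges, 36.8, 183 and 184 CPM in diaphragm and 79.8, 270 and 187 CPM in skin. The tissues overlapped, and the lowest value was that of Meninges replicate 1. Meninges against skin gave a log2 fold change of -1.65 (standard error 0.93, edgeR adjusted p = 0.493). Serpine3 averaged 2.51 CPM over the meningeal, 2.88 CPM over the diaphragm and 7.16 CPM over the skin libraries, with no difference called.

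Of 36 listed target proteases of serpins, 23 had a row and 12 were tested. These 12 passed the filter partly through the tissue in which they are high. In each comparison with diaphragm, 2 of them had no count in 1 of the tissues compared. C1s1 was the only one of the 12 called by edgeR, in meninges against skin. That was 1 of 12, beside 1.32% of all genes, and there 4 had an unadjusted p under 0.05 (13.8% of all genes), the DESeq2 Wald test called 2 (9.49%) and limma voom 0 (2.79%). For meninges against diaphragm edgeR called none, 3 had an unadjusted p under 0.05 (10.1%) and DESeq2 and limma voom called 0 (6.07% and 1.35%). For diaphragm against skin edgeR called none, 3 had an unadjusted p under 0.05 (11.8%), DESeq2 called 1 (7.10%) and limma voom 0 (0.00674%). The median log2 fold change of the 12 was 2.83 for meninges against diaphragm (0.05 over all genes), 1.79 for meninges against skin (0.08) and -0.16 for diaphragm against skin (0.01). The most abundant were Ctsl, a lysosomal cysteine protease, at 453, 419 and 500 CPM in meninges, 132, 231 and 318 CPM in diaphragm and 201, 261 and 212 CPM in skin, and Plau, the plasminogen activator urokinase. Plau stood at 154, 131 and 112 CPM in meninges, 18.5, 56.5 and 166 CPM in diaphragm and 0.0385, 58.7 and 2.73 CPM in skin. Meninges lay above skin without overlap in both genes, and neither was called.

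Cofactors, receptors and partners of serpins gave no call by edgeR in any comparison among 24 tested. Of the 24, those with an unadjusted p under 0.05 numbered 0 for meninges against diaphragm (10.1% of all genes), 7 for meninges against skin (13.8%) and 4 for diaphragm against skin (11.8%). The DESeq2 Wald test called 0 (6.07% of all genes with an adjusted p), 3 (9.49%) and 3 (7.10%) in the same comparisons, and limma voom called 0 in each (1.35%, 2.79% and 0.00674% of all genes). Median log2 fold changes were -0.06, 0.30 and 0.67, beside 0.05, 0.08 and 0.01 over all genes. The 2 most abundant were Lrp1, the endocytic receptor that clears serpin complexes, at 310, 1923 and 1621 CPM in meninges, 377, 222 and 133 CPM in diaphragm and 0.424, 99.4 and 238 CPM in skin, and Hspg2, the matrix proteoglycan perlecan, at 601 ± 63.3 CPM for meninges, 614 ± 243 CPM for diaphragm and 348 ± 113 CPM for skin (mean ± SD, n = 3 each). The meningeal levels of Lrp1 lay above all skin levels but overlapped diaphragm through Meninges replicate 1 and Diaphragm replicate 1.

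The intracellular clade B serpins were led by Serpinb6a, an inhibitor of cathepsin G and trypsin-like proteases. It stood at 48.1, 81.6 and 79.4 CPM in meninges, 142, 152 and 267 CPM in diaphragm and 136, 110 and 89.2 CPM in skin. The 3 tissues did not overlap in any pairing, with meninges lowest and diaphragm highest. None of the differences was called by edgeR (log2 fold change -1.42 ± 0.45 SE, edgeR adjusted p = 0.305 for meninges against diaphragm; -0.68, 0.44 and 0.58 for meninges against skin; 0.74, 0.44 and 0.546 for diaphragm against skin). The DESeq2 Wald test called the difference between meninges and diaphragm (adjusted p = 0.028). Serpinb9, which protects cells from granzyme B, stood at 13.7, 23.2 and 62.1 CPM in meninges, 25.3, 34.7 and 49.6 CPM in diaphragm and 40.6, 17.8 and 8.60 CPM in skin, with all tissues overlapping. Serpinb6b, a close relative of Serpinb6a, stood at 7.45, 15 and 22.8 CPM in meninges, 6.61, 0 and 32.6 CPM in diaphragm and 5.16, 1.33 and 1.05 CPM in skin. Its meningeal libraries lay above the skin libraries without a call (log2 fold change 2.58 ± 1.92 SE, edgeR adjusted p = 0.669). Serpinb1a, an inhibitor of neutrophil proteases, had 290 counts over the meningeal libraries and 191 over the diaphragm libraries, against 0 in skin. The pooled level was at least 68.7-fold that of skin in meninges and at least 56.6-fold in diaphragm (against 3 counts over the skin libraries, counting error only). Most of these counts came from Meninges replicate 2 (273) and Diaphragm replicate 1 (181), while Meninges replicate 3 had 2 and Diaphragm replicate 3 had 0. EdgeR called neither difference (adjusted p = 0.281 for meninges and 0.382 for diaphragm), and the DESeq2 Wald test called that of meninges against skin. Serpinb6c was seen in Meninges replicates 2 and 3 and in Skin replicate 3 and had no count in diaphragm. Serpinb1b, Serpinb1c and Serpinb8 stayed at or under 3.48 CPM in every library.

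Among the clotting serpins, Serpinc1, which encodes antithrombin, had 258 counts in Meninges replicate 1 (8.04 CPM) and 0 in the other 8 libraries. Serpind1, which encodes the thrombin inhibitor heparin cofactor II, stood at 0.343, 15.2 and 1.24 CPM in meninges, 1.58, 0 and 0.0357 CPM in diaphragm and 1.54, 2.02 and 3.69 CPM in skin. Its meningeal mean rested on Meninges replicate 2, and no difference was called. Serpinf2, the plasmin inhibitor of plasma, had 90 counts in Skin replicate 2 and none elsewhere. Serpini1, which encodes neuroserpin, an inhibitor of tissue plasminogen activator in neurons, stood at 0.0624, 0 and 0.29 CPM in meninges, 1.69, 0.377 and 44.1 CPM in diaphragm and 0 in all skin libraries. Diaphragm lay above both other tissues in every library, but 1236 of its 1292 counts were in Diaphragm replicate 3. The pooled diaphragm level was at least 383-fold that of skin (against 3 counts over the skin libraries), and the difference was not called by edgeR (adjusted p = 0.292), while the DESeq2 Wald test called it (adjusted p = 4.80e-04). For meninges against diaphragm the values were 0.431 by edgeR and 0.0338 by DESeq2 (adjusted p). Diaphragm also differed in markers of other cells: the 8 skeletal muscle markers summed to 384.9 to 1065 CPM in diaphragm, against 80.90 to 268.0 CPM in skin, and the mesothelial markers to 40.85 to 1189 CPM, against 0 CPM in skin. Among the diaphragm libraries, the muscle sum was highest in replicate 2 and the mesothelial sum in replicate 1. The 8 neural, glial and choroid plexus markers summed to 9.946, 0.3772 and 12.88 CPM in Diaphragm replicates 1, 2 and 3, highest where Serpini1 was highest, against 1.411 to 5.700 CPM in skin. In meninges they summed to 440.9 to 561.8 CPM, where Serpini1 was at most 0.29 CPM. Most of that meningeal sum was Ttr, at 508, 527 and 427 CPM, against 0.0713 CPM or less in diaphragm. The meningeal and diaphragm sums thus rest on different markers. The part of these cells in the Serpini1 levels was not tested.

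Serpina1 transcripts were found in diaphragm libraries and in no library of the other tissues. Serpina1e and Serpina1d, mouse copies of the elastase inhibitor alpha-1-antitrypsin, had 1208 and 751 counts in Diaphragm replicate 1 (44.3 and 27.6 CPM) and 0 in the other 8 libraries. Serpina1b (88 counts), Serpina1c (31) and Serpina3k (50) were likewise found in Diaphragm replicate 1 alone, and Serpina1a had 63 counts there and 5 in Diaphragm replicate 3. Serpina10, which inhibits clotting factor X, had 276 counts in Diaphragm replicate 3 alone. The libraries with these serpins also held other liver transcripts: the 10 liver markers with a row, chosen after these levels were seen, summed to 77.29, 0 and 20.76 CPM in Diaphragm replicates 1, 2 and 3, against 0.566 CPM or less in each other library. Albumin (Alb) itself stood at 38.8, 0 and 5.06 CPM in the diaphragm libraries and at 0 in all others. The part of liver RNA in the Serpina1 levels was not tested. Without Diaphragm replicate 1, the 5 Serpina1 genes would be left with the 5 counts of Serpina1a in the other diaphragm libraries. The remaining members seen in 1 library were Serpinb1c (3 counts in Diaphragm replicate 2), Serpina3f (43 counts in Meninges replicate 1), Serpina6, the corticosteroid carrier (19 counts in Meninges replicate 3), Serpina3d-ps (2 counts in Skin replicate 1) and Serpina3b (48 counts in Skin replicate 2).

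For diaphragm against skin, 0 of the 16 tested serpins were called by edgeR, beside 0.0405% of all genes. By direction, the serpins called higher in meninges, 1 in each meningeal comparison, stood beside 0.169% and 0.748% of all genes, and the 1 called lower than in skin beside 0.573%. Serpins with an unadjusted p under 0.05 numbered 6 of 16 for meninges against diaphragm (10.1% of all genes), 6 of 16 for meninges against skin (13.8%) and 5 of 16 for diaphragm against skin (11.8%). In the last comparison the DESeq2 Wald test called 2 serpins (7.10% of all genes with an adjusted p) and limma voom called 0 (0.00674% of all genes). Libraries of the compared tissues did not overlap in 4 of 16 serpins for meninges against diaphragm (17.1% of all genes), 6 of 16 for meninges against skin (20.2%) and 5 of 16 for diaphragm against skin (13.5%). The median log2 fold change of the 16 was 0.19, 1.42 and 0.38, beside 0.05, 0.08 and 0.01 over all genes, and these medians were the same with genes that had no count in a tissue set to their bound. The comparisons share libraries pairwise, and the serpins that passed the filter did so partly through the tissue in which they are high. The same limits apply to the gene lists.

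**Figure D5:**
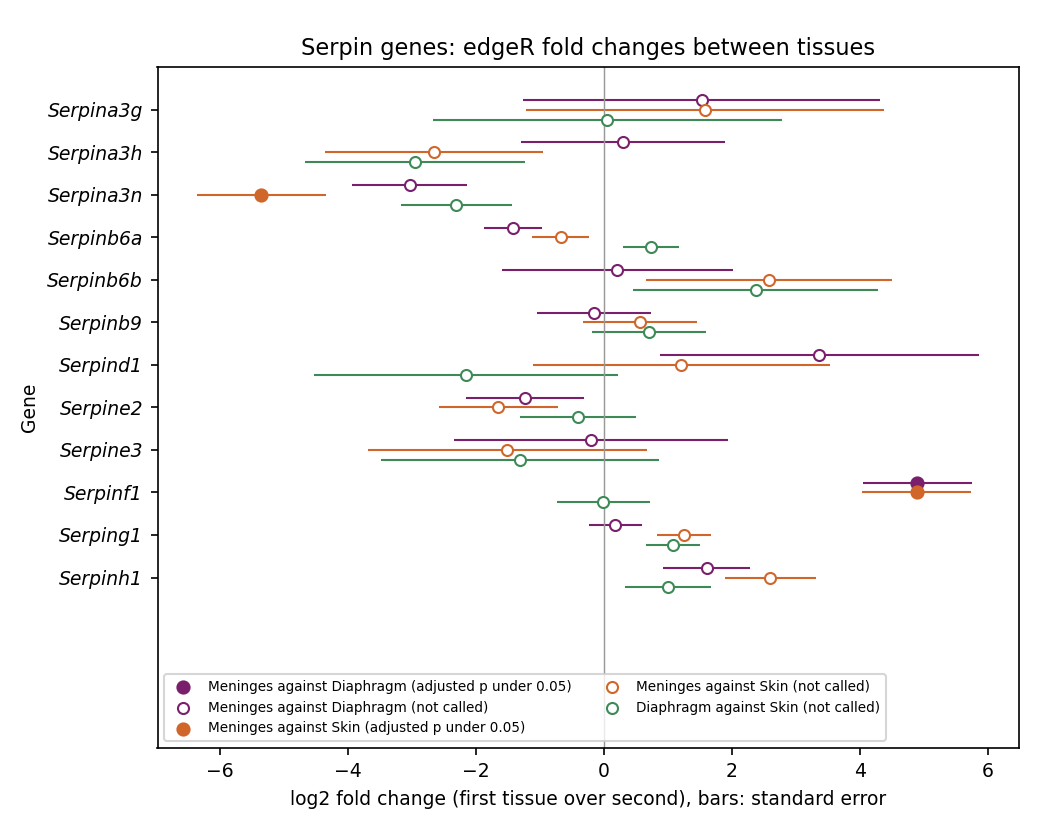
Log2 fold changes (horizontal, first tissue over second) with standard errors from the edgeR fit for the 12 tested serpins with more than 3 counts in every tissue, 3 comparisons per gene. Filled points, adjusted p under 0.05, appear for Serpinf1 at 4.90 and 4.89 and for Serpina3n at -5.36, and all points for diaphragm against skin are open.

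Genes listed as protease inhibitors outside the serpin family moved in both directions. Itih5 is listed by its family name, inter-alpha-trypsin inhibitor heavy chain, and no inhibition by its product is claimed here. Of 17 tested, Itih5, whose product belongs to a family that carries hyaluronan, was called higher in meninges in both comparisons, at 943, 569 and 930 CPM in meninges, 270, 228 and 158 CPM in diaphragm and 176, 159 and 286 CPM in skin (log2 fold change 1.90 against diaphragm, edgeR adjusted p = 0.0451, and 1.97 against skin, edgeR adjusted p = 0.0166). Timp2 and Timp3, inhibitors of matrix metalloproteases, were lower in meninges than in skin. Timp3 stood at 1932, 1492 and 1703 CPM in meninges, against 3877, 3627 and 5192 CPM in skin (log2 fold change -1.31 ± 0.22 SE, edgeR adjusted p = 0.0117). Timp2 stood at 1031, 972 and 1296 CPM in meninges, against 2574, 2257 and 2760 CPM in skin (log2 fold change -1.20, edgeR adjusted p = 0.018). None of these libraries overlapped between the tissues compared. Timp3 kept its call without any one library, Timp2 in 6 of 9 such fits, and Itih5 in 6 against skin and 4 against diaphragm. The Itih5 call against diaphragm was also lost with the replicate block (edgeR adjusted p = 0.0526) and with DESeq2 size factors (edgeR adjusted p = 0.0511), and the Timp2 call in the fit of the 2 tissues alone (edgeR adjusted p = 0.0561). The 1 of 17 called against diaphragm stood beside 0.344% of all genes, and the 3 of 17 called against skin beside 1.32%. For meninges against diaphragm, 4 had an unadjusted p under 0.05 (10.1% of all genes). There DESeq2 called 2 higher and 0 lower (6.07%), and limma voom 1 higher and 1 lower (1.35%). For meninges against skin, 7 had an unadjusted p under 0.05 (13.8%). There DESeq2 called 2 higher and 3 lower (9.49%), and limma voom 1 higher and 2 lower (2.79%). For diaphragm against skin edgeR called none of the 17, with 3 at an unadjusted p under 0.05 (11.8% of all genes), 2 calls by the DESeq2 Wald test (7.10%) and 1 by limma voom (0.00674%). Median log2 fold changes of the list were 0.97 for meninges against diaphragm, 0.95 for meninges against skin and -0.61 for diaphragm against skin, beside 0.05, 0.08 and 0.01 over all genes.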

How the data were processed

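RNA was made into libraries from sorted LECs, 3 per tissue. Per the submitters' processing notes the deposited counts per Ensembl gene come from STAR and HTSeq, with FastQC for quality, on mm9. Not given in the sources used here are versions, annotation, strand setting and how multi-matching reads were counted. All 9 columns were used. The test was edgeR 4.0.16 under R 4.3.3 (filterByExpr with a minimum count of 10, TMM scaling, glmQLFit and glmQLFTest, 1 mean per tissue, Benjamini-Hochberg adjustment). Variation between replicates was large (biological coefficient of variation 1.243). CPM are counts divided by the TMM-scaled total, and levels per kb use GENCODE M21 exon lengths. Alternatives were DESeq2 1.42.0 size factors, its Wald test, limma 3.58.1 voom with quality weights, no filter, a replicate block, the 2 compared tissues alone and each library left out. The tests were also run on simulated counts. The outcome of that run is not reported here, and no statement on the calls rests on it. No replicate pair agreed within sampling noise (chi-square over its degrees of freedom 325.6 to 533.9). Text names each serpin that was called, that averaged 10 CPM or more in a tissue, or that led its clade, and from each gene list the called genes and the 2 most abundant; further members named as seen in few libraries were chosen after their values were seen. Of the members, 1 is counted in the totals but its own values are not reported here. Members and lists were chosen with earlier results of these data known. Chromosomes, promoter windows and their coordinates are from GRCm38 references, not from the files' build. Plots used Python 3.11.15 and matplotlib 3.10.9.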

Additional observations from a re-analysis of the deposited data

How the results depend on the processing

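The number of serpins called for meninges against diaphragm, 1, became 3 with the DESeq2 Wald test (6.07% of all genes with an adjusted p). It became 0 with limma voom (1.35% of all genes), 2 with no filter (1.29%) and 0 to 1 with a library left out. For meninges against skin, 2 became 5 with DESeq2 (9.49%), 4 with no filter (2.65%) and 1 to 3 with a library left out. For diaphragm against skin, 0 became 2 with DESeq2 (7.10%), 1 with no filter (1.33%) and 0 to 1 with a library left out. All genes called for meninges against diaphragm, 51, became 932 with DESeq2, 200 with voom, 298 with no filter, 106 with the 2 tissues alone and 19 to 105 with a library left out. For meninges against skin, 196 became 1458, 414, 610 with no filter and 74 to 236. For diaphragm against skin, 6 became 1064, 1 with voom, 305 with no filter, 1 with the 2 tissues alone and 2 to 58. With the replicate block the serpin calls were 1, 2 and 0 and the calls over all genes 70, 231 and 16. Deviations from the tissue mean correlated at -0.021 to 0.051 between same-numbered libraries and at -0.057 to 0.039 between differently numbered ones. No pairing was seen, but deviations among 3 libraries per tissue cannot settle whether the numbers pair libraries. Of 569 values of single genes under 15 alternatives, 494 kept direction and side of the threshold, 46 lost and 9 gained a call. Most of the 569 values belong to differences that the main fit did not call. All 46 losses fell on the few that it called, so the total does not measure how stable the calls were. Direction turned in 20, none of them called: with a library left out, Serpina3h (-0.28 to 2.76), Serpinb6b (-0.41 to 2.19), Serpinb9 (-0.98 to 0.22) and Serping1 (-0.08 to 0.55) for meninges against diaphragm, Serpinb9 (-0.28 to 1.32) against skin, and Serpine2 (-0.77 to 0.03) and Serpinf1 (-0.51 to 0.62) for diaphragm against skin; with voom, Serpinb6b (-0.41) and Serpinf1 (0.11) for diaphragm against skin. The cause was not tested.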
